A study of Ovis aries with 9 samples.

Results

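The genes described here fell in cultured rumen epithelial (RE) cells under GA-017 and stayed near the untreated level under verteporfin. They were 204 of the 25962 genes in the count table and 1.74% of the 11709 genes with a mean of 1 CPM or more in at least one group. CPM is a gene's count per 1000000 counts of its library. The 204 genes were chosen from their own values in these libraries. The log2 ratio of the mean CPM in GA to that in Con, with 0.1 CPM added to both, was -1 or less, every GA library lay below every Con library, and the same ratio for VP lay between -0.25 and 0.25. The contrasts with Con that chose the genes are therefore given as descriptions, with no test.

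RNA-seq was run on primary RE cells of newborn Hu lambs, wild type by their label and kept in one culture medium. The GA group received 10 μM GA-017 for 24 h, the VP group received 5 μM verteporfin for 24 h, and the Con group was left untreated. Each group had 3 wells of cultured cells, so the spread between them holds no difference between animals. Both compounds were diluted with DMSO, the Con wells are labelled as untreated, and the part of the solvent was not tested. Library totals ran from 14458606 to 15814380 counts, and the deepest library held 1.09 times the counts of the shallowest. In each group 1 well stood further from the other two. For well 1 of GA the chi-square per degree of freedom was 13.6 and 14.1 against the other GA wells, which differed from each other by 2.92. It was 10.6 and 7.22 for well 3 of Con, against 4.52 between wells 1 and 2, and 8.14 and 7.48 for well 3 of VP, against 2.87.

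The Hippo cascade phosphorylates the co-activators YAP1 and TAZ, which keeps them out of the nucleus. Unphosphorylated YAP1 and TAZ enter the nucleus and drive transcription with TEAD proteins. In stratified squamous epithelia such as the rumen wall, they are known for sustaining the proliferation of basal cells, from which the spinous, granular and cornified layers arise. GA-017 is used as an activator because it lowers YAP1/TAZ phosphorylation, and verteporfin is used as an inhibitor because it disturbs their work with TEAD. Genes that fall under the activator and hold their level under the inhibitor are the ones counted here. The genes carry sheep Ensembl identifiers, and the RefSeq gene table used here lists an Ensembl identifier for 0 of its 35057 genes, so no match was possible. Symbols, functions, sequences, and the check of the labelled cell type against its markers are therefore not given here. Only 2 members are named, by identifier, and the others are described by their rank and values.

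Summed over the members on the CPM scale, the fall in GA was about 3-fold and the level in VP was that of Con. The 204 genes together took 17582, 18051 and 18033 CPM in Con wells 1 to 3, 5582, 5538 and 5473 CPM in the GA wells, and 17578, 17611 and 18101 CPM in the VP wells. All GA wells were far below all other wells, while the VP and Con ranges overlapped. GA kept 30.9% of the Con sum and VP 99.3%. These sums hold no scaling beyond library size. The TMM factors of edgeR were 1.009, 1.023 and 1.055 for Con and 0.956, 0.949 and 0.993 for VP. On that scale VP would stand higher against Con. As a share of all counts, the members went from 1.79% ± 0.0265 in Con to 0.553% ± 0.00552 in GA and 1.78% ± 0.0293 in VP (SD, n = 3). In bulk RNA, fewer cells of one type and less RNA of a gene per cell cannot be told apart.

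A few genes carried much of this sum. CPM is not scaled to gene length, so the order of counts between genes also reflects their lengths. The most counted member took 21.7% of the members' Con sum, the first 2 took 34.8% and the first 10 took 65.3%. Without the first 10, the remaining members summed to 6203 ± 67.5 CPM (SD, n = 3) for Con. For GA this sum was 2302 ± 24.7 CPM, and for VP it was 6377 ± 30.3 CPM. The GA sum was then 37.1% of Con and the VP sum 102.8%. The rule chose each member for a fall of 2-fold or more in GA and a level near Con in VP. Any part of the members would therefore give sums in this direction, so only their size is described.

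The deepest fall was that of ENSOARG00020014269. The Con wells held 619, 598 and 544 counts of it, the GA wells 8, 4 and 2, and the VP wells 573, 490 and 604. This gene was almost silent in every GA well and at the Con level in the VP wells, whose range overlapped that of Con. Its mean level was 38.8 ± 1.07 CPM for Con, 0.306 ± 0.205 CPM for GA and 36.1 ± 2.77 CPM for VP (SD, n = 3), a 126.5-fold fall with GA-017. On the TMM scale, the log2 fold change in edgeR was -6.93 (SE 0.23) in GA and -0.055 (SE 0.094) in VP.

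The member with the second deepest fall was counted 454, 369 and 355 times in Con, 8, 7 and 0 times in GA, and 398, 387 and 351 times in VP. The third had 655, 706 and 757 counts in Con, 33, 20 and 33 in GA, and 777, 820 and 921 in VP. In both, every GA well lay far below every other well. In the third, every VP count was above every Con count. On the CPM scale these groups overlapped, with 50.5 in VP well 1 and 52.4 in Con well 3. On the TMM scale, the edgeR log2 fold change of the third in VP was 0.27 (SE 0.092, adjusted p 0.0195). The third was thus called higher in VP at FDR under 0.05. For the second, the log2 fold change in VP was -0.023 (SE 0.12). These 3 genes were expressed at moderate level in Con, at 38.8, 25.9 and 46.8 CPM, and kept 0.79%, 1.27% and 4.0% of it in GA. No other member kept so little with more than 20 CPM in Con. The fourth, at 18.3 CPM in Con, kept 6.2%.

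ENSOARG00020007556 was the member with the most counts and had the eighth deepest fall. Its counts were 55113, 58708 and 61810 for the Con wells, 6427, 5706 and 5873 for GA, and 49269, 47447 and 60865 for VP. The GA wells formed a narrow low group. VP wells 1 and 2, at 3199 and 3193 CPM, lay below the lowest Con well, at 3538 CPM. VP well 3, at 3849 CPM, lay within the Con range. Its mean level was 3879 ± 372 CPM for Con, 392 ± 30.2 CPM for GA, which is 9.9-fold lower, and 3414 ± 377 CPM for VP (SD, n = 3). This gene alone made up 28.2% of the CPM that the members lost in GA. Its edgeR log2 fold change was -3.29 (SE 0.078) in GA and -0.14 (95% interval -0.28 to 0.010) in VP. The VP value lay below the Con value in each of the 3 same-numbered pairs of wells. With the well number as a block in edgeR (replicate block), the log2 fold change in VP was again -0.14. The adjusted p was then 4.17e-07 in place of 0.109, so the block changes the call. The labels do not say that wells of one number are pairs. Over the other settings that kept all libraries, the adjusted p ran from 0.0425 to 0.3004.

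The other members with 100 CPM or more in Con fell by less. The second most counted member had 2234, 2469 and 2322 CPM in Con, 1093, 1045 and 978 in GA, and 2560, 2648 and 2505 in VP. It kept 44.3% of its Con level in GA, and its VP wells all lay above its Con wells. The third had 1531, 1567 and 1457 CPM in Con, 255, 243 and 245 in GA, and 1291, 1268 and 1280 in VP. It kept 16.3% in GA, and its VP wells all lay below its Con wells, so it stood at the lower edge of the VP window with a log2 ratio of -0.247. The fifth had 726, 770 and 753 CPM in Con, 207, 191 and 184 in GA, and 777, 793 and 792 in VP. In all 3 of these genes, the highest GA well lay below the lowest well of the other groups.

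**Figure D1:**
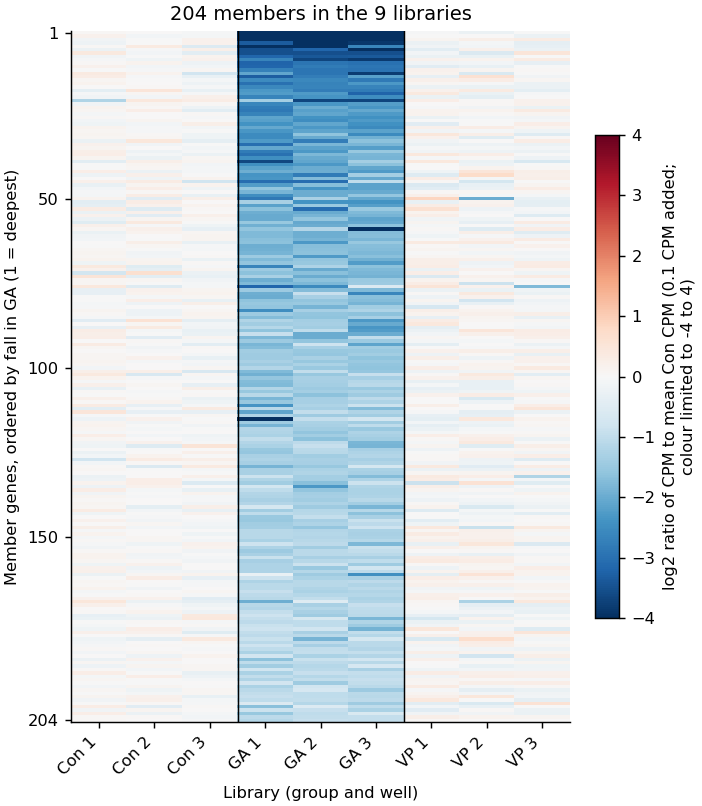
Each row is 1 of the 204 members, ordered from the deepest fall in GA, and each column is 1 library. Colour gives the log2 ratio of the CPM to the mean Con CPM, with 0.1 CPM added and the colour limited to -4 to 4. The 3 GA columns are blue in nearly all rows, while the Con and VP columns stay mostly pale, with single bluer VP cells in the members ranked 50 and 76.

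Most members fell by a moderate amount. The median log2 ratio was -1.39, with quartiles at -1.91 and -1.16, and the median member kept 37.0% of its Con level. In 113 members (55.4%) the ratio was above -1.5, in 46 it was from -1.5 to above -2, in 35 from -2 to above -3, and in 10 it was -3 or less. The GA wells shared this fall to a similar extent, with median ratios over the members of -1.5, -1.42 and -1.45 in wells 1 to 3. Over all genes past the minimum, the median ratio in GA was -0.031.

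Some members were close to the limit of counting in GA. A floor of 3 counts in a library, which is 0.207 CPM at the lowest depth and covers counting error only, was not exceeded in any GA well by 3 members. One of these was counted 22, 15 and 11 times in Con, 0 times in all 3 GA wells, and 15, 10 and 24 times in VP. Against the floor in each GA library, its fall was at least 5.36-fold. The other two had 34, 38 and 44 and 12, 23 and 12 counts in Con, and were at least 13.1-fold and 5.27-fold lower in GA. A count of 0 in at least 1 GA well was found for 7 members, and a mean under 1 CPM in GA for 49. No member had 0 counts in any Con or VP well.

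**Figure D2:**
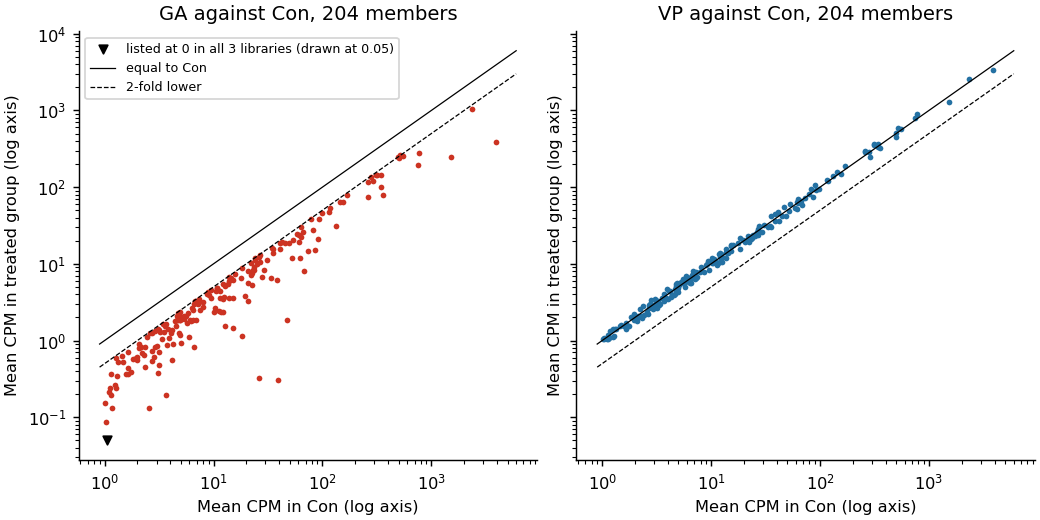
Mean CPM of the 204 members in GA (left) and VP (right) against the mean CPM in Con, on log axes. The solid line marks equality and the dashed line a 2-fold lower level. The GA points lie under the dashed line over the whole range from 1.01 to 3879 CPM, and the VP points follow the solid line. The triangle is the member with 0 counts in all GA wells.

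The members were found at every level of expression, more often at low levels. They made up 3.38% of the genes past the minimum with under 5 CPM in Con (74 members), 1.75% of those with 5 to under 20 CPM (57 members), 1.09% of those with 20 to under 100 CPM (49 members) and 1.35% of those with 100 CPM or more (24 members). No member had a mean under 1 CPM in Con, while the lowest class of all genes also held genes below that level. The median Con level was 9.43 CPM in the members and 22.8 CPM in all genes past the minimum. The median ratio in GA was -1.57 in the lowest of these classes, -1.32 and -1.39 in the middle ones, and -1.22 in the highest. The spread between wells was wider at low counts, and its part in the larger share of members there was not tested. The median coefficient of variation between GA wells was 39.2% in the lowest class and 5.51% in the highest, and between Con wells it was 19.1% and 4.84%.

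In the fit over all genes, 191 of the 196 members that passed its filter were called lower in GA (quasi-likelihood F-test of edgeR, Benjamini-Hochberg adjusted, FDR under 0.05 and more than 2-fold), against 5.68% of the 11403 genes tested. The rule used this contrast, so nothing is read from the difference. The filter asked for 1 CPM in all 3 libraries of a group, and 8 members with 1.01 to 1.27 CPM in Con did not pass it. Of the 5 members tested and not called, 3 passed the FDR and missed the 2-fold limit on the TMM scale, with log2 fold changes of -0.99, -0.98 and -0.98. The other two had 20, 26 and 21 against 0, 11 and 13 counts, and 25, 14 and 19 against 5, 13 and 9 counts, in Con and GA. The median log2 fold change of the 196 was -1.38, with a median SE of 0.21. Without well 1 of GA, the median was -1.40 and 183 members were called. Without well 3 of Con, these values were -1.45 and 188.

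**Figure D3:**
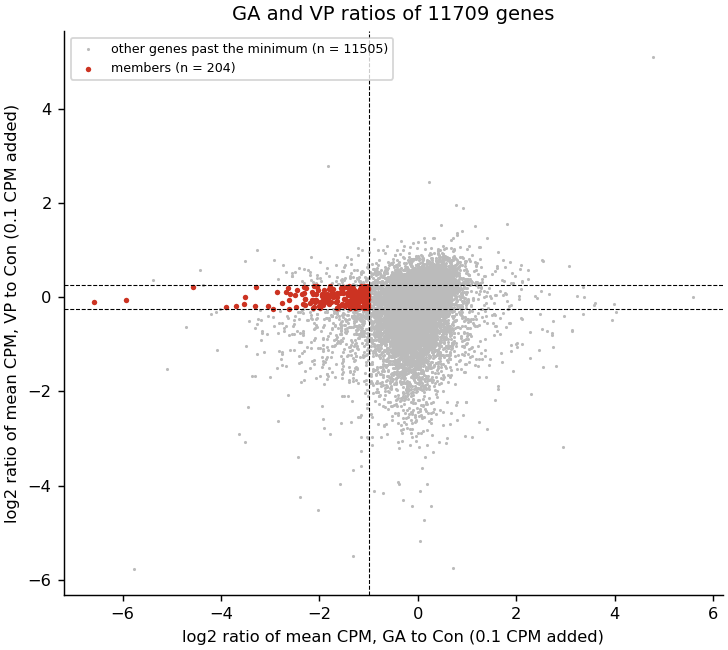
The log2 ratio of mean CPM in GA to Con is plotted against that in VP to Con for the 11709 genes past the minimum, with 0.1 CPM added. Dashed lines mark the limits of the rule at -1, -0.25 and 0.25. The 204 members fill the strip to the left, and 498 other genes with the same fall and no overlap of GA and Con lie above or below it.

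The same fall in GA came with very different levels in VP. A log2 ratio of -1 or less in GA, with no overlap between GA and Con, was found in 702 genes. The VP ratio was within the window in 204 of these (29.1%), below it in 409 (58.3%) and above it in 89 (12.7%). It was -1 or less in 151, of which 144 had every VP library below every Con library, and 1 or more in 0. Among all 11709 genes past the minimum, 37.7% had a VP ratio within the window. Since GA and VP are compared with the same Con wells, the 2 ratios of a gene are not independent. The share within the window was 31.8% among genes with a GA ratio above -1.5, and 26.9%, 25.4% and 26.3% in the classes of deeper fall.

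Within the window, VP was above Con in 102 members and below it in 102. The VP and Con libraries overlapped in 181 members. They lay wholly above Con in 15 and wholly below in 8, and within the Con range in 35. All members without overlap and 31 of those within the Con range were among the 196 that passed the filter of the fit described above. Of the 11403 genes that passed it, 25.6% lay wholly above Con, 33.6% wholly below and 5.82% within the Con range. The median VP ratio was -0.0017 in the members and -0.090 over all genes past the minimum.

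The VP changes that could be resolved fell on members with higher counts, and the window of the rule kept them small. In the fit over all genes, 18 of the 196 members had FDR under 0.05 for VP against Con, against 53.2% of all tested genes. The window of the rule bears on this difference, and the part of the members' lower counts was not tested. With 100 CPM or more in Con, 12 of 24 tested members were called, and with 20 to under 100 CPM, 6 of 49. At lower levels there were 0 calls, among 57 members with 5 to under 20 CPM and 66 with under 5. None of the members passed 2-fold, against 10.6% of all tested genes, and the window sets this. The 18 had log2 fold changes between -0.20 and 0.28, with 16 higher and 2 lower in VP. Their median Con level was 214 CPM, and that of the other 178 was 8.02 CPM. For many low members, these libraries do not tell a small VP change from none.

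Those 18 calls depended on the scale, the replicate block and single libraries. Without scaling beyond library size they were 12, of which 8 were higher and 4 lower in VP, so 66.7% were higher in place of 88.9%. With the replicate block they were 33, of which 26 were higher and 7 lower. Leaving out well 2 of Con gave 9 calls. Leaving out VP wells 1, 2 and 3 in turn gave 11, 5 and 26. The median log2 fold change of the members in VP was 0.045 with TMM and -0.0025 without that scaling, so its sign follows the scale.

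**Figure D4:**
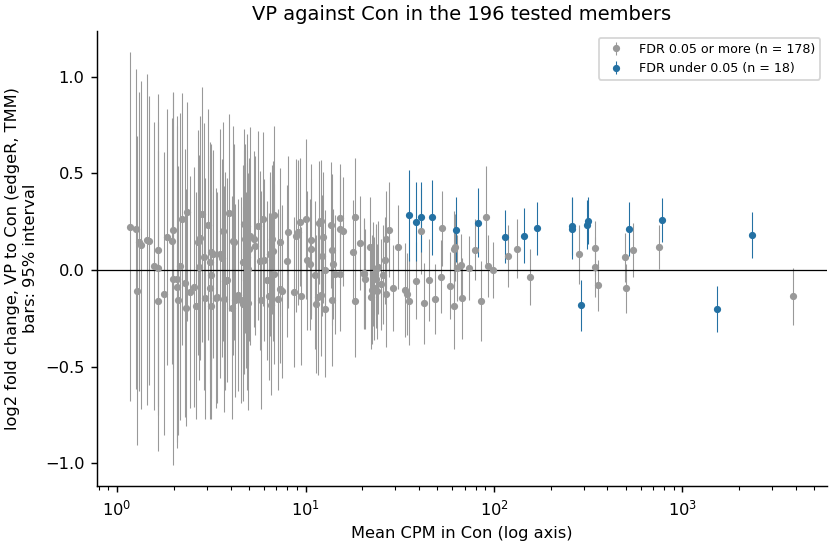
The edgeR log2 fold change of VP against Con, with its 95% interval, is plotted against the mean CPM in Con (log axis) for the 196 members tested. Blue points are the 18 members with FDR under 0.05. The intervals narrow from left to right, and 192 of them lie wholly between -1 and 1.

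The width of these intervals sets how near to Con the VP level is known to be. The 95% interval of the VP log2 fold change lay within -1 to 1 in 192 of the 196 members and within -0.5 to 0.5 in 96. It reached a median of 0.37 to either side of the fold change. The 4 members whose interval reached past 2-fold all had under 5 CPM in Con. The interval included 0 in 175 members, which does not show that VP left them at the Con level.

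Set directly against VP, GA was lower in nearly all members. Every GA library lay below every VP library in 197 of the 204 and in 190 of the 196 tested, against 26.5% of all tested genes. GA was called lower by more than 2-fold in 180 of the 196 members tested, against 4.97% of all tested genes, with a median log2 fold change of -1.48. Both parts of the rule act on this contrast, so it is a description too. The GA and VP libraries overlapped in 7 members. One of these had 44, 33 and 8 counts in VP and 2, 4 and 20 in GA, and another had 32, 3 and 14 counts in VP and 1, 6 and 3 in GA. All 7 had under 5 CPM in Con.

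The values of wells that did not take part in the choice describe how far the wells of this experiment resemble one another. Both ratios of a gene use the same Con well, and the genes are not replicates. The rule was applied to the 6 libraries left when the same-numbered well of each group was set aside, and the genes it chose were then read in those 3 wells. This was decided after the data had been seen. Without wells 1, 2 and 3 it chose 215, 218 and 200 genes, of which 151, 153 and 147 are among the 204. In the wells set aside, GA was lower than Con in 95.3%, 97.2% and 97.0% of the chosen genes, where 47.5%, 54.4% and 56.3% of all genes past the minimum were lower. The fall was 2-fold or more in 74.9%, 78.9% and 71.0%, where 7.22%, 7.19% and 8.13% of all genes fell that far. The median ratio in these wells was -1.45, -1.36 and -1.33, close to the -1.40, -1.41 and -1.43 in the wells used to choose.

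The VP window was kept by a smaller share of the chosen genes. In the wells set aside, the VP ratio stayed within the window in 49.8%, 47.7% and 60.0% of the chosen genes, where 36.7%, 34.1% and 35.5% of all genes past the minimum did. It stayed within 0.5 in 80.5%, 78.4% and 79.0%, and 11, 16 and 5 genes went past 2-fold in VP. With 1 well per group in such a reading there is no test. Within this experiment, the fall in GA was read again in most chosen genes, and the narrow VP window in a smaller share of them. All chosen genes were read in the same 1 well per group, so their number adds no replication. The GA limits have only an upper bound, while the VP window is bounded on both sides. In the members, the median coefficient of variation between wells was 11.8% in Con and 10.7% in VP. These shares therefore do not compare how steady the GA and VP levels are.

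**Figure D5:**
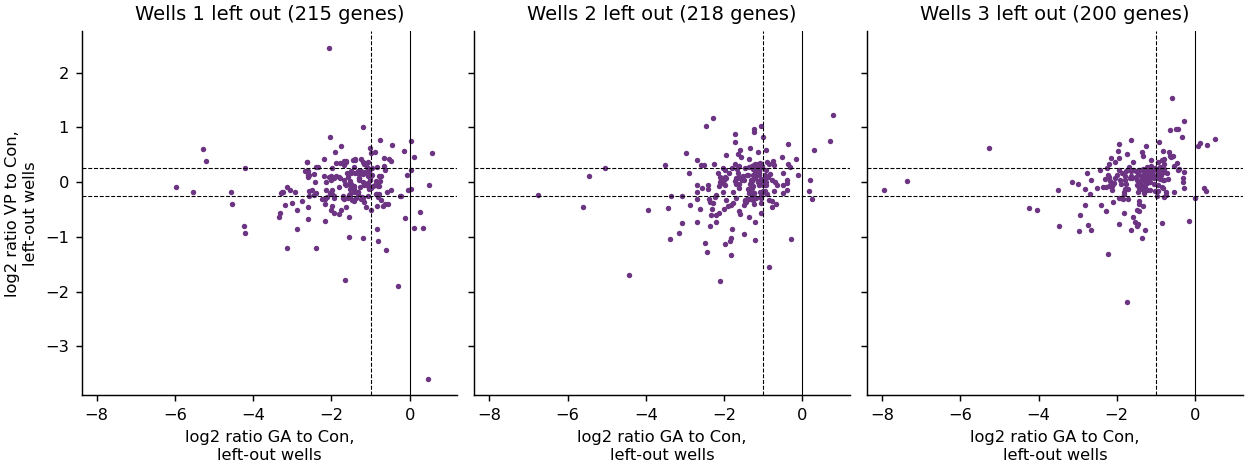
For the genes chosen without wells 1, 2 or 3, the log2 ratio of GA to Con in the wells set aside is plotted against that of VP to Con, with 0.1 CPM added. Dashed lines mark the limits of the rule. Nearly all points lie left of 0, and they spread above and below the VP window.

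Leaving out single libraries changed the number of chosen genes less than which genes they were. The rule chose between 187 genes (without well 3 of VP) and 213 genes (without well 1 of GA). Of the 204, at least 190 stayed when a GA well was left out, between 168 and 179 when a VP well was, and between 163 and 172 when a Con well was. All 9 omissions kept 84 members (41.2%), and 6 members stayed in fewer than 5 of them.

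The limits of the rule cut through a continuous range. The members nearest to the GA limit had ratios of -1.003 and -1.004, and the genes just outside it had -0.998 and -0.994. Between -1 and -1.1 there were 34 members, and 36 genes that met the other conditions lay between -0.9 and -1. At the VP limits, the nearest members had 0.247 and 0.245 above and -0.247 and -0.242 below, and the nearest genes outside had 0.2504 and 0.259, and -0.2502 and -0.2509. The 2 members with the least room between GA and Con had 2.99 CPM in the highest GA well against 3.08 in the lowest Con well, and 1.29 against 1.37. Another 5 genes met all conditions except that their GA and Con libraries overlapped, and the nearest of these had 1.16 against 1.11 CPM.

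The wells of a group did not rank the members in one order. Well 1 of GA was the lowest GA well in 73 members and the highest in 78, well 2 in 56 and 63, and well 3 in 75 and 63. Over all genes past the minimum, well 1 was the lowest in 36.2% and the highest in 45.1%, where the members gave 35.8% and 38.2%. Well 3 of Con was the lowest Con well in 41.7% of the members and in 34.6% of all genes. It was the highest Con well in 24.0% of the members and in 40.8% of all genes. The part of the wells that stand apart in the values of the members was not tested beyond the omissions given above.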

How the data were processed

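The authors filtered the reads with CASAVA (version 1.8), aligned them by HISAT2 to the Rambouillet sheep assembly (Oar_rambouillet_v1.0) and deposited, for each of the 9 libraries, unnormalized counts of every gene. The counting tool and annotation are not given in the sources used here. All columns were assigned by their names.

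CPM (a gene's count per 1000000 counts of the library) were computed on column totals. Genes were tested with edgeR 4.0.16 (R 4.3.3), glmQLFit and glmQLFTest, after TMM normalization, with only the 6 libraries compared and Benjamini-Hochberg adjustment over all genes tested. The SE is the log2 fold change over the square root of F. DESeq2 1.42.0 and limma-voom (limma 3.58.1) were alternatives. The test was tried on simulated data first.

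How wells of one number departed from their group's mean was compared over all tested genes. Between Con and VP, these departures correlated by 0.155, 0.109 and 0.367 for wells 1 to 3. The highest values with a well of another number were 0.145, 0.066 and -0.192. Well 3 stood apart in both groups. Over the members alone, the same-numbered values were -0.033 to 0.086. Between Con and GA they were -0.284 to 0.057 over all tested genes, and between GA and VP -0.164 to 0.088. The labels do not mark same-numbered wells as pairs, and a block by number served as an alternative only. Whether the study used a block is not given in the sources used here, and the comparisons were made without one.

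The members and lists were chosen with earlier results of these data known. The named genes are the member with the lowest GA ratio and that with the highest Con CPM, the rule for identifiers without symbols. Gene lists and markers were not analysed here. P-values measure the spread between wells only.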

Additional observations from a re-analysis of the deposited data

How the results depend on the processing

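Of 118 values recomputed with all libraries kept, 109 stayed on their side of the limits, 7 moved and 2 gained a call. The gains were both for ENSOARG00020007556 in VP against Con, with the replicate block (edgeR adjusted p 4.17e-07) and without a filter on low counts (0.0425). Without 1 library, its log2 fold change ran from -0.20 to -0.076, and its adjusted p from 0.00863, without well 3 of VP, to 0.357. The rule chose 121 genes with a VP window of 0.15, 276 with 0.35, 198 on TMM-scaled CPM (161 shared), and from 187 to 218 without single wells or same-numbered wells. It chose 153 with 1 CPM added in place of 0.1 (140 shared), 230 with a minimum of 0.5 CPM and 275 with no minimum. Of these numbers, only that at a window of 0.15 was counted as moved, so a value that stayed could still differ much from 204. The members with FDR under 0.05 in VP, 18, were 33 with the replicate block and from 5 to 26 without 1 library. Their median log2 fold change in VP, 0.045, was 0.081 with DESeq2-type size factors and with DESeq2, -0.0025 without scaling, 0.037 at a minimum of 2 CPM, 0.089 in one fit of all 9 libraries, and from 0.024 to 0.10 without 1 library. Without 1 library, the median of GA against Con ran between -1.45 and -1.39, that of GA against VP between -1.52 and -1.48, and the log2 fold change of ENSOARG00020014269 in VP from -0.090 to 0.00048. With the replicate block, 188 members were called lower in GA than in Con and 176 lower than in VP. For the moved values the cause was not tested. Lengths and FPKM were not used here. A floor of 3 counts limits what can be ordered at the lowest levels.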
